A study of Mus musculus with 6 samples.

Results

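The stem cells that sit at the base of the small intestinal crypt are recognised by a small set of transcripts, and 6 of these genes, Lgr5, Olfm4, Ascl2, Smoc2, Lrig1 and Hmgb2, were followed here in single-nucleus RNA sequencing of mouse intestinal organoids. They were taken as a fixed list by Ensembl identifier and were 6 of the 31319 genes in the deposited count tables. The organoids had been grown from jejunal crypts of C57BL/6 mice of 8 to 12 weeks and were kept either in quiescent conditioned medium (QCM), from mouse embryonic fibroblasts arrested by serum deprivation, or in senescent conditioned medium (SCM), from such fibroblasts driven into senescence by X-rays or doxorubicin. Each medium had 3 samples, numbered 1 to 3, and the labels do not say which of the 2 senescence treatments gave the medium of which sample. Nothing in the labels says whether the 3 samples came from separate animals or cultures, so the p-values measure the spread between these samples alone, which may be technical. The conditioned medium holds whatever the fibroblasts secrete, and the organoids are epithelium without the stroma that surrounds a crypt in the animal.

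Crypt base columnar cells divide throughout life and give rise to all lineages of the intestinal epithelium, and their state depends on Wnt ligands and on R-spondins, which raise the cell's sensitivity to Wnt. LGR5 is an R-spondin receptor and the defining marker of these cells, and ASCL2 is a basic helix-loop-helix transcription factor that acts in the Wnt programme of the stem cell. OLFM4 and SMOC2 are secreted glycoproteins, LRIG1 is a transmembrane protein that restrains ErbB receptor signalling, and HMGB2 is a DNA-bending chromatin protein that is abundant in dividing cells.

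The tables held 38154 nuclei in 15 clusters that the authors made and deposited as numbers without names. Depth was uneven, from 4071926 unique molecular identifiers (UMIs, the tags that mark counted molecules) in SCM replicate 1, with 430 nuclei, to 41035733 in QCM replicate 1, with 3791 nuclei, and the median per nucleus lay between 1578 and 8260 UMIs. In SCM replicate 1, 7 nuclei of cluster 14 held 1310315 of the UMIs, so its levels over all nuclei rest in part on these 7. QCM replicate 1 and SCM replicate 1 shared 175 cell barcodes, which was 40.7% of the nuclei of SCM replicate 1, whereas all other pairs of samples shared 0 to 36. Nuclei of the same barcode in these 2 samples were no more alike than other nuclei, with a median correlation of 0.406 against 0.408. The share of UMIs from 87 ribosomal protein genes was 15.2%, 5.32% and 11.02% in the QCM samples, in order of replicate number, and 4.41%, 2.77% and 7.79% in the SCM samples. Levels are given in CPM, the UMIs of a gene per 1000000 UMIs of the same sample or cluster.

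In the GENCODE annotation of GRCm38, Lgr5 (ENSMUSG00000020140) lies on the minus strand of chromosome 10 from 115450311 to 115587780, Smoc2 (ENSMUSG00000023886) on the plus strand of chromosome 17 from 14279506 to 14404790, and Lrig1 (ENSMUSG00000030029) on the minus strand of chromosome 6 from 94604529 to 94700158. These 3 genes span 137.5, 125.3 and 95.6 kb. Olfm4 (ENSMUSG00000022026, plus strand of chromosome 14, 79984081 to 80023139) spans 39.1 kb, while Hmgb2 (ENSMUSG00000054717, plus strand of chromosome 8, 57511907 to 57515999) spans 4.1 kb and Ascl2 (ENSMUSG00000009248, minus strand of chromosome 7, 142966829 to 142969264) 2.4 kb. Olfm4 overlaps Gm6999 on its own strand, and Lgr5 and Lrig1 overlap A930009A15Rik and Slc25a26 on the opposite strand. For Hmgb2, 11 other annotated genes, 5 of them in the deposited tables, carry at least 200 bases that match its transcripts at 90% identity or more, the closest at 99.7%, and counting may have split reads among them.

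Upstream sequence from RefSeq was at hand for 4 of the 6 genes, and 3 are shown because Hmgb2 and Ascl2 gave more UMIs in cluster 1, summed over samples, than the rest of the same samples would predict, and Lrig1 fewer. Olfm4, the gene not shown, also gave more there, 1733 UMIs against 1351 expected, with 1 CCAAT box as for Lrig1. A relation between boxes and cluster 1 was not tested. Each line gives, 5′ to 3′ on the strand of the gene, the 250 bases before its RefSeq start in GRCm38.p6: chr8:57511593-57511842 (plus strand) for Hmgb2, chr7:142969265-142969514 (minus strand) for Ascl2 and chr6:94700146-94700395 (minus strand) for Lrig1. Capitals mark CCAAT, the box that NF-Y binds, and TTTGAA, an element found in promoters of cell cycle genes, on either strand.
Hmgb2: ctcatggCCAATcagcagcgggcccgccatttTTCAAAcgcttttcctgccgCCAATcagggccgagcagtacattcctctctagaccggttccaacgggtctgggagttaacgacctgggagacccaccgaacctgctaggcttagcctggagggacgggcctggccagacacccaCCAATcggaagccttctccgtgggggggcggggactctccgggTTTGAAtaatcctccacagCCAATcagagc
Ascl2: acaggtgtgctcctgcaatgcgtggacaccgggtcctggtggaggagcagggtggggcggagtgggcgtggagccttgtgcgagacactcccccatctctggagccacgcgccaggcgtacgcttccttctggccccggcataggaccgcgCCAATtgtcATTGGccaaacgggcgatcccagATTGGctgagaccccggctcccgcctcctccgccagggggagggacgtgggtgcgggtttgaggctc
Lrig1: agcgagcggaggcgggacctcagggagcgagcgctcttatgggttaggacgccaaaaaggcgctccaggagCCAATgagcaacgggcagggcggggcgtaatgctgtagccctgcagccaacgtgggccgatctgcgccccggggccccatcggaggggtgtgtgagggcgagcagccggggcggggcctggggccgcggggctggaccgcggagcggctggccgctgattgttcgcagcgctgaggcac

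The Hmgb2 window held 4 CCAAT boxes, all on the gene's own strand, and 2 TTTGAA elements, 1 on each strand. Of 32536 mouse promoter windows of the same length, 0.842% held 4 or more CCAAT boxes and 1.81% held 2 or more TTTGAA elements. The Ascl2 window held 3 CCAAT boxes, as did 2.78% of all windows counted at 3 or more, and the Lrig1 and Olfm4 windows held 1 each, as did 33.8% counted at 1 or more. CTTTGA, the core that TCF and LEF factors bind, which can overlap TTTGAA, was in none of the 4 windows and in 13.9% of all windows. RefSeq starts can differ from those of GENCODE. The Hmgb2 window ended at 57511842, before the GENCODE start at 57511907. The Olfm4 window (chr14:80000052-80000301, plus strand) lay inside the GENCODE span of that gene, which starts at 79984081. These are letter matches and not measured binding.

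The first question was where in the organoid epithelium these transcripts were found. Lgr5, Smoc2 and Lrig1 shared a pattern in the mean log2 ratio of a cluster to the rest of the same sample. They were highest in clusters 0, 2 and 14 and lowest in clusters 7 and 8, whereas Hmgb2 was highest in cluster 1. In counts pooled over samples Lrig1 was lowest in cluster 1 instead, at 235 CPM. Where Olfm4 stood between the patterns of these genes depended on whether counts were pooled over samples, and Ascl2 was sparse. No cluster was the highest for all 6. The 8 genes on a stem cell marker list that included these 6 had their highest pooled level in 6 different clusters, Ascl2 in cluster 12 on 6 UMIs, while all 6 tuft markers peaked in cluster 11, 7 of 8 fetal markers in cluster 7, 6 of 9 enterocyte markers in cluster 8 and 5 of 7 goblet markers in cluster 6. Paneth markers were split, 3 highest in cluster 6 and 3 in cluster 1, and so were enteroendocrine markers, 4 in cluster 9 and 4 in cluster 10. The clusters are therefore called by number. They had been built from these nuclei and genes, so the levels by cluster are descriptions without a test.

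Lgr5 was measured in cluster 2 at 272, 773 and 405 CPM in QCM replicates 1, 2 and 3 and at 743, 1116 and 582 CPM in SCM replicates 1, 2 and 3. In cluster 8 it was at 117, 275 and 194 CPM in the QCM samples and at 307, 217 and 172 CPM in the SCM samples. Within each sample cluster 2 stood above cluster 8, while the samples differed from one another in both. Over samples, the log2 ratio of a cluster to the rest of the same sample was 0.56 ± 0.09 (SD, n = 6) in cluster 2, 0.43 ± 0.23 in cluster 0 and -1.10 ± 0.50 in cluster 8, with 6 of 6 samples on the same side in each. Cluster 14, with 92 nuclei of a median 39432.5 UMIs, had a ratio of 0.61 ± 0.49 in the 3 samples with at least 10 of its nuclei. Clusters 0 and 2 held 31.8% and 20.4% of all Lgr5 UMIs, against 23.0% and 14.8% of all UMIs.

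Smoc2 had nearly the same order, with log2 ratios to the rest of 0.53 ± 0.08 (SD, n = 6) in cluster 2, 0.51 ± 0.18 in cluster 0 and -1.07 ± 0.52 in cluster 8. Lrig1 had a narrower range, from 0.40 ± 0.21 in cluster 0 and 0.39 ± 0.13 in cluster 2 to -0.58 ± 0.36 in cluster 7. For both genes clusters 0 and 2 were above the rest in 6 of 6 samples, and clusters 1, 5, 7 and 8 below it in 6 of 6, as was cluster 6 for Smoc2. Over the 15 clusters the log2 levels of Lgr5 correlated with those of Smoc2 at r = 0.923 and with those of Lrig1 at r = 0.901. The clusters share libraries and differ in depth and ribosomal protein share, so these coefficients are given without a p.

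Hmgb2 was measured in cluster 1 at 682, 233 and 318 CPM in QCM replicates 1, 2 and 3 and at 303, 181 and 237 CPM in SCM replicates 1, 2 and 3. QCM replicate 1 was the highest, and the other 5 samples lay between 181 and 318 CPM with the media overlapping. Cluster 1 exceeded the rest by a log2 ratio of 0.64 ± 0.13 (SD, n = 6) and cluster 4 by 0.25 ± 0.13, in 6 of 6 samples each, while cluster 2, high for Lgr5, was below the rest in 6 of 6 at -0.41 ± 0.37. Cluster 1 held 34.0% of Hmgb2 UMIs with 19.0% of all UMIs. It was also the cluster with the highest ribosomal protein share, 16.4% against 3.84% in cluster 14, and over the 15 clusters the Hmgb2 level and this share correlated at r = 0.960. For Lgr5, Smoc2 and Lrig1 the same coefficient was -0.457, -0.410 and -0.627. These use counts pooled over samples, and QCM replicate 1, highest for both Hmgb2 and the ribosomal share, gave 54.2% of the UMIs of cluster 1. Within the 6 samples taken singly, over 9 to 15 clusters each, the coefficient of Hmgb2 ran from 0.620 to 0.961 with a median of 0.763, and that of Lgr5 from -0.760 to 0.107. The part of the ribosomal share in these patterns was not tested.

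Olfm4 and Ascl2 gave few UMIs, 7226 and 550 in all nuclei together, and were compared with the number expected if the cluster had had the level of the rest of each sample. Olfm4 gave 117 UMIs in cluster 11 against 76.4 expected, 213 in cluster 7 against 486, and 223 in cluster 8 against 368. Ascl2 gave 177 in cluster 1 against 103 expected, 74 in cluster 0 against 109, and 8 in cluster 14 against 20.02 in the 3 samples with at least 10 of its nuclei. SCM replicate 1, not among these, had 7 nuclei of cluster 14, which gave 19 of its 28 Ascl2 UMIs. Olfm4 was below the rest in 6 of 6 samples in clusters 7 and 8, with mean CPM of 25.8 ± 20.5 and 23.6 ± 17.1 (SD, n = 6). Ascl2 was above the rest in cluster 1 in 4 of 6 samples, by a log2 ratio of 0.47 ± 0.53 (SD, n = 6), and QCM replicate 1 gave 120 of the 177 UMIs there. Over the 15 clusters Olfm4 correlated with Lgr5, Smoc2 and Lrig1 at r = 0.396, 0.525 and 0.285 in counts pooled over samples, and at 0.677, 0.713 and 0.553 in the mean of the samples' log2 levels. With Hmgb2 these values were 0.549 pooled and 0.317 in the mean of samples. Ascl2 had no UMI in 15 of the 81 combinations of sample and cluster with at least 10 nuclei, where 3 counts would have been 2.93 to 54.0 CPM, so lower levels could not be detected there.

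For all 6 genes, each cluster and the next in order of mean CPM differed by less than the larger of their SDs over samples, in 14 of 14 neighbouring pairs. With each cluster set against the rest of its own sample, 13 or 14 of 14 neighbouring pairs still lay within the larger SD. By this measure the order of neighbouring clusters was not resolved by these samples. The pooled level of Lgr5 differed 3.44-fold between the highest and the lowest cluster. The same figure was 17.5 for Muc2, the main goblet mucin, 131 for Chga, an enteroendocrine granule protein, and 218 for Pou2f3, the tuft cell regulator.

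**Figure D1:**
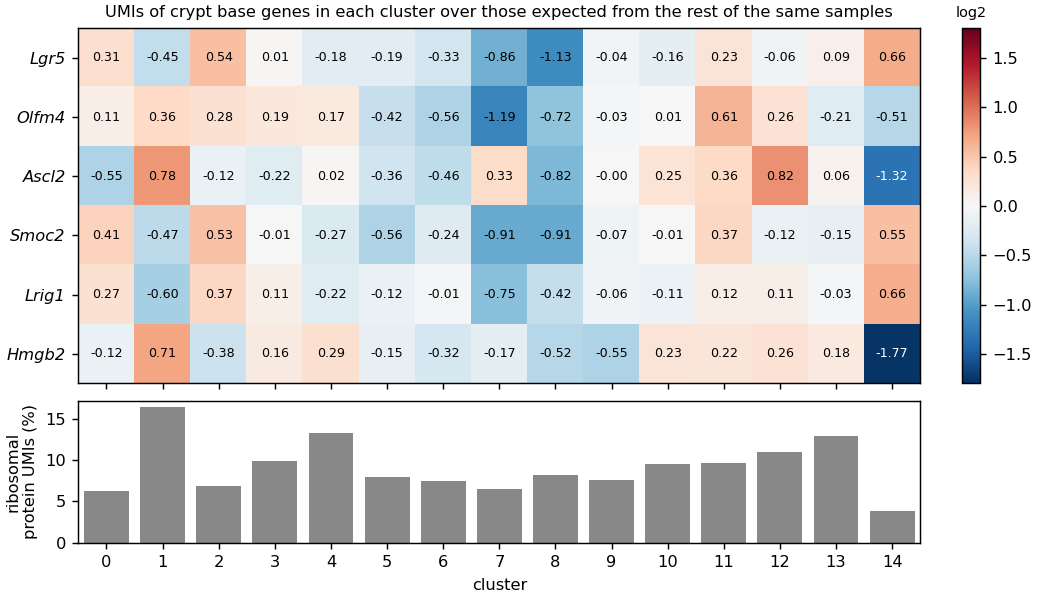
The upper panel gives, for each crypt base gene (rows) and deposited cluster (columns), the log2 of the UMIs observed over those expected from the rest of the same samples, and the lower panel the ribosomal protein share of each cluster in percent of UMIs. Lgr5, Smoc2 and Lrig1 are high in clusters 0, 2 and 14 (0.31, 0.54 and 0.66 for Lgr5), and Hmgb2 is highest in cluster 1 (0.71).

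Whether the genes met in the same nuclei was asked after thinning every nucleus to 1000 UMIs, by exact expectation, so that nuclei were compared at the same depth. The 3179 nuclei under 1000 UMIs were left out, among them 0 of 3791 in QCM replicate 1 and 106 of 430 in SCM replicate 1. The share of nuclei with both genes was divided by the product of the 2 shares, which gives 1 where the genes fall in nuclei independently. Lgr5 and Smoc2 gave 1.21 ± 0.07 (SD, n = 6), Lgr5 and Lrig1 1.19 ± 0.08, and Smoc2 and Lrig1 1.14 ± 0.05, each above 1 in 6 of 6 samples. At this depth 51.9% of nuclei with an Lgr5 UMI also had one of Smoc2, against 39.7% of nuclei without.

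Olfm4 joined this group in part, at 1.14 ± 0.09 with Lgr5 (6 of 6 samples above 1), 1.18 ± 0.13 with Smoc2 (5 of 6) and 1.03 ± 0.06 with Lrig1 (4 of 6). Hmgb2 lay on the other side, at 0.937 ± 0.026 with Lgr5, 0.944 ± 0.057 with Smoc2 and 0.935 ± 0.037 with Lrig1, below 1 in 6 of 6 samples for all 3. Smoc2 with Hmgb2 was less firm, at 0.983 with 1 of 6 samples above 1 at 2000 UMIs, and also had 1 of 6 above 1 without the 6% of nuclei with the most UMIs. Within cluster 0, which held the most Lgr5 UMIs, Lgr5 with Smoc2 and with Lrig1 stayed above 1 in 6 of 6 samples (1.13 ± 0.05 and 1.12 ± 0.08), while Lgr5 with Hmgb2 was 0.978 ± 0.06 and below 1 in 3 of 6. These counts moved with the depth chosen, which also sets the nuclei kept. In cluster 0 Lgr5 with Hmgb2 was below 1 in 5 of 6 samples at 500 UMIs (mean 0.856) and in 6 of 6 at 2000 (0.951). Lgr5 with Smoc2 was above 1 there in 5 of 6 at 2000. Over all clusters, the nuclei left out at 2000 UMIs ran from 0 of 3791 in QCM replicate 1 to 6860 of 10144 in QCM replicate 3. In cluster 0 at 1000 UMIs Olfm4 was at 0.982 ± 0.36 with Lgr5 (5 of 6 samples above 1) and 0.877 ± 0.30 with Lrig1 (2 of 6). SCM replicate 1, with 10 nuclei of cluster 0 at this depth, gave 0.283 and 0.288, and the other 5 samples gave 1.02 to 1.33 and 0.879 to 1.12. Ascl2 was too sparse for the ratio to be read. The size of a ratio depends on the depth chosen for some pairs: Lgr5 with Smoc2 went from 1.29 at 500 UMIs to 1.11 at 2000, while Lgr5 with Olfm4 was 1.14 and 1.16.

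**Figure D2:**
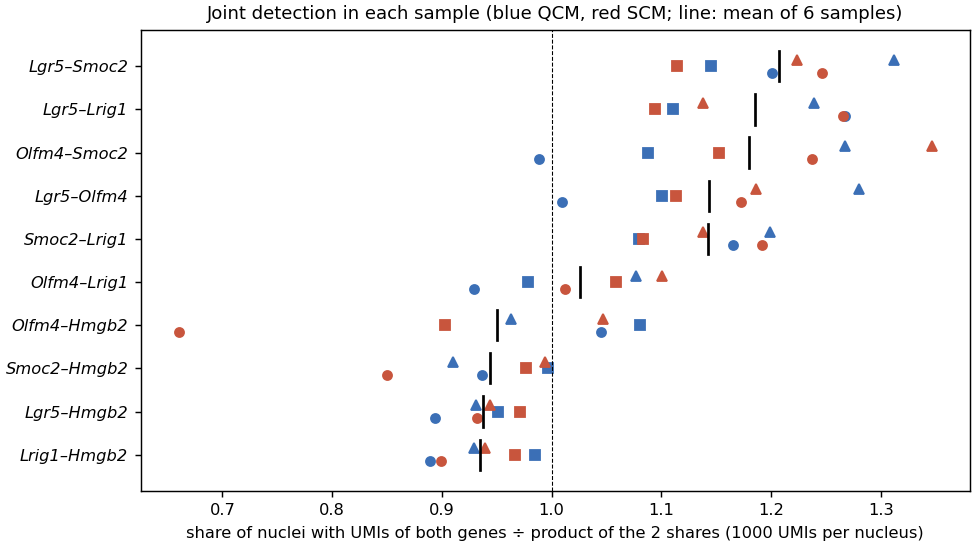
Each point is the ratio of joint detection to the product of the 2 shares (horizontal axis) for 1 sample and 1 pair of genes (rows), at 1000 UMIs per nucleus, and the line is the mean of 6 samples. Lgr5 and Smoc2 lie at 1.21 and all 3 pairs of Hmgb2 with Lgr5, Smoc2 and Lrig1 lie below 1 in every sample.

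The second question was whether SCM changed these genes. None of the 6 passed the test over all nuclei, and none separated the media. The counts of each sample were summed over nuclei and fitted with edgeR's quasi-likelihood test, in which 0 of 19046 genes tested (0%) had a Benjamini-Hochberg adjusted p under 0.05. Among all genes tested, 4.55% had an unadjusted p under 0.05 and 7.08% had CPM values that did not overlap between media. Hmgb2 was the only one of the 6 under the first threshold, and 0 of 6 were apart. In sums over all nuclei, fewer cells of a type and less RNA per cell cannot be told apart.

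Lgr5, the receptor, was at 185, 596 and 297 CPM in QCM replicates 1, 2 and 3 and at 534, 811 and 442 CPM in SCM replicates 1, 2 and 3. QCM replicate 2 lay above 2 of the SCM samples, so the media overlapped. In edgeR the ratio, as log2 of SCM over QCM, came to 0.62 ± 0.38 (SE, adjusted p = 0.929). Without QCM replicate 2 it was 1.09, without QCM replicate 1 it was 0.38 and without SCM replicate 2 it was 0.34.

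Lrig1, the ErbB regulator, was at 219, 587 and 325 CPM in the QCM samples and at 422, 577 and 415 CPM in the SCM samples. Its highest and its lowest value were both in QCM. SCM exceeded QCM by 0.21 ± 0.31 on the log2 scale (edgeR adjusted p = 0.936), or by 0.58 with QCM replicate 2 left out and by 0.015 with QCM replicate 1 left out.

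Of the secreted proteins, Smoc2 was at 534, 1027 and 500 CPM in QCM and at 900, 1016 and 506 CPM in SCM, and the media overlapped. Its log2 ratio was 0.09 ± 0.34 (edgeR adjusted p = 0.981), and -0.12 to 0.39 with 1 sample left out at a time. Olfm4 was at 65.6, 57.2 and 37.0 CPM in QCM and at 32.2, 58.2 and 39.9 CPM in SCM. The media overlapped here too. Its log2 ratio was -0.48 ± 0.32 (edgeR adjusted p = 0.929) and 0.017 with replicates 2 and 3 alone.

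Ascl2, the transcription factor, was at 6.24, 2.18 and 2.46 CPM in QCM and at 6.88, 3.32 and 3.54 CPM in SCM. Replicate 1 was the highest in both media. The log2 ratio was 0.03 ± 0.56 (edgeR adjusted p = 0.996), on 550 UMIs in all, 28 of them in SCM replicate 1. In CPM SCM was higher in 3 of 3 replicate numbers, and with samples scaled by library size alone the log2 ratio was 0.28. Its direction was not firm, at -0.31 to 0.88 with 1 sample left out at a time.

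Hmgb2, the chromatin protein, was at 499, 172 and 225 CPM in QCM and at 180, 119 and 179 CPM in SCM. QCM replicate 1 stood far above the other 5 samples, and QCM replicate 2 was below 2 of the SCM samples. The log2 ratio was -1.14 ± 0.48, with an unadjusted p of 0.0435 and an adjusted p of 0.927 in edgeR. Without QCM replicate 1 it was -0.36.

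**Figure D3:**
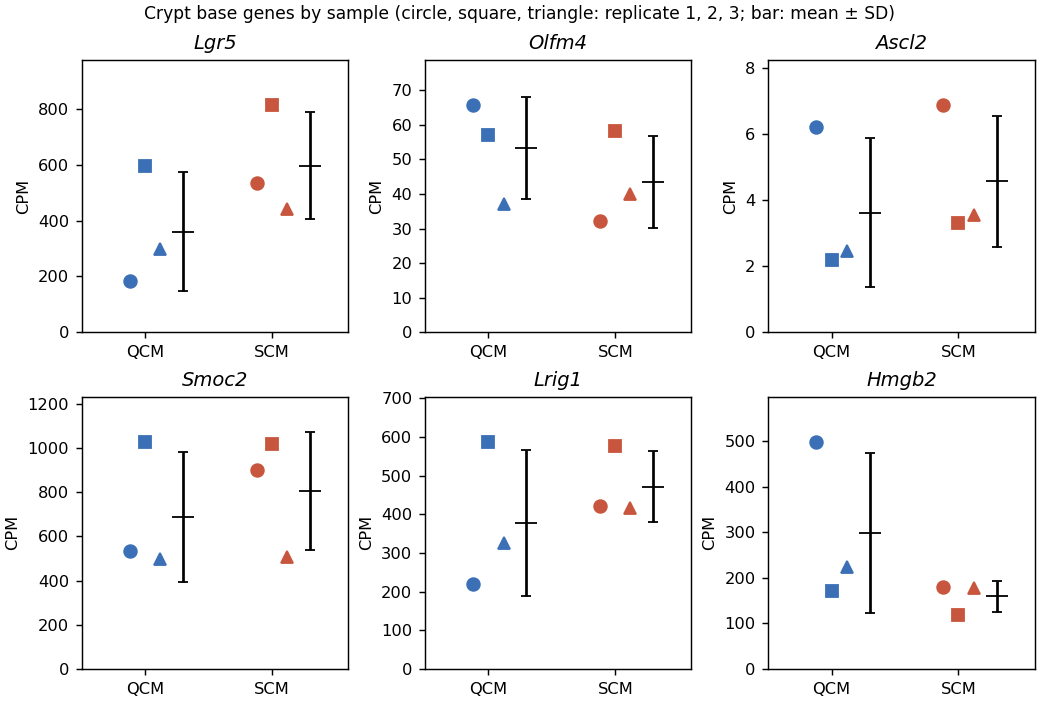
Each panel shows the CPM of 1 gene in the 3 QCM samples (blue) and the 3 SCM samples (red), with the marker shape giving the replicate number and the bar the mean and SD of the 3 samples. The media overlap for all 6 genes, and QCM replicate 1 is the lowest sample for Lgr5 and Lrig1 (185 and 219 CPM) and the highest for Hmgb2 (499 CPM).

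The share of nuclei with a UMI was compared at an equal depth of 1000 UMIs, where 0 of the 6 genes separated the media, beside 5.99% of the 19046 genes tested. Lgr5 was found in 12.8%, 35.2% and 21.1% of nuclei in the QCM samples, in order of replicate number, and in 29.4%, 48.7% and 29.1% in the SCM samples. Means were 23.1% ± 11.3 and 35.8% ± 11.2 (SD, n = 3 each, two-sided exact permutation p = 0.3), and without thinning 47.4% and 55.8%. For Hmgb2 the shares were 43.2%, 17.5% and 20.1% in QCM and 18.4%, 12.3% and 17.4% in SCM, with means of 26.9% ± 14.2 and 16.0% ± 3.27 (exact permutation p = 0.2), and without thinning 56.4% and 38.4%. Again QCM replicate 1 was at one end for both genes. The other 4 genes had exact permutation p-values between 0.4 and 0.8 (n = 3 each), and 3 samples against 3 cannot give a p under 0.1.

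An Lgr5 UMI alone did not single out a nucleus. In cluster 8, where 6 of 9 enterocyte markers peaked, 15.1% ± 4.10 (SD, n = 6) of nuclei had one at 1000 UMIs, and in cluster 11, where the tuft markers peaked, 30.8% ± 14.03 (n = 5), against 34.7% ± 12.9 in cluster 0 and 38.6% ± 13.7 in cluster 2. Before thinning the median depth was 2366.5 UMIs in cluster 8, 2080.5 in cluster 11, 2111 in cluster 0 and 2557 in cluster 2. The part of free RNA in these shares was not tested.

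Levels were also set against the ribosomal protein share of the sample, a relation that many genes had. Among the 19046 genes tested, 29.1% had an exact permutation p under 0.05 for Pearson's r over the 6 samples and 0% after Benjamini-Hochberg adjustment over all of them, and for Spearman's rho it was 17.9% and 0%. Of the 6 crypt base genes, 3 had such a p for r and 1 for rho before adjustment, and 0 after it. Lgr5 had r = -0.988 (exact permutation p = 0.00556, adjusted over all genes 0.0782) and rho = -0.943 (exact permutation p = 0.0167, adjusted 0.121), and 0.971% of genes had an r as far from 0. Lrig1 had r = -0.937 (exact permutation p = 0.0167, adjusted 0.0999) and rho = -0.829 (exact permutation p = 0.0583, adjusted 0.215), and Hmgb2 r = 0.937 (exact permutation p = 0.0111, adjusted 0.0884) and rho = 0.829 (exact permutation p = 0.0583, adjusted 0.215), as far from 0 as in 11.3% of genes for both. Without QCM replicates 1 and 3, the samples farthest from the median share, r was -0.907 for Lgr5, -0.571 for Lrig1 and 0.742 for Hmgb2, over 4 samples.

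Smoc2 had r = -0.813 (exact permutation p = 0.0778, adjusted over all genes 0.214) and rho = -0.657 (exact permutation p = 0.175, adjusted 0.404), and r = -0.859 over the same 4 samples. For Olfm4 and Ascl2 r was 0.212 and 0.213 (exact permutation p = 0.656 and 0.669) and rho 0.200 and 0.0286 (exact permutation p = 0.714 and 1). Taking ribosomal UMIs out of the total left the coefficient of Lgr5 at -0.985 and that of Hmgb2 at 0.948. The share itself averaged 10.5% ± 4.97 in QCM and 4.99% ± 2.56 in SCM (SD, n = 3 each, two-sided exact permutation p = 0.2). With the share as a covariate in edgeR, the log2 ratios became -0.063 ± 0.20 (SE) for Lgr5, -0.28 ± 0.20 for Lrig1, -0.41 ± 0.31 for Smoc2 and 0.0063 ± 0.29 for Hmgb2. All 4 changed sign, but Lgr5 and Hmgb2 lay less than their SE from 0. The mean share differed between media, so with 6 samples the share and the medium cannot be fully told apart. Ascl2 went from 0.03 to 1.10 ± 0.65 (SE) and Olfm4 from -0.48 to -0.31 ± 0.43, and 0 of the 6 genes had an unadjusted p under 0.05 in this fit.

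Genomic length moved with the media too. Over all genes tested, the median log2 ratio (SCM over QCM) stood at -0.13 for genes under 10 kb, the class of Hmgb2 and Ascl2, and -0.03 for genes of 10 to 50 kb, the class of Olfm4. It was 0.12 for genes of 50 to 100 kb, the class of Lrig1, and 0.13 for genes over 100 kb, the class of Lgr5 and Smoc2. Of these last, 64.1% had a positive ratio, against 39.0% of genes under 10 kb. The part of length and of the ribosomal share in the ratios of the 6 genes was not tested beyond the covariate.

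**Figure D4:**
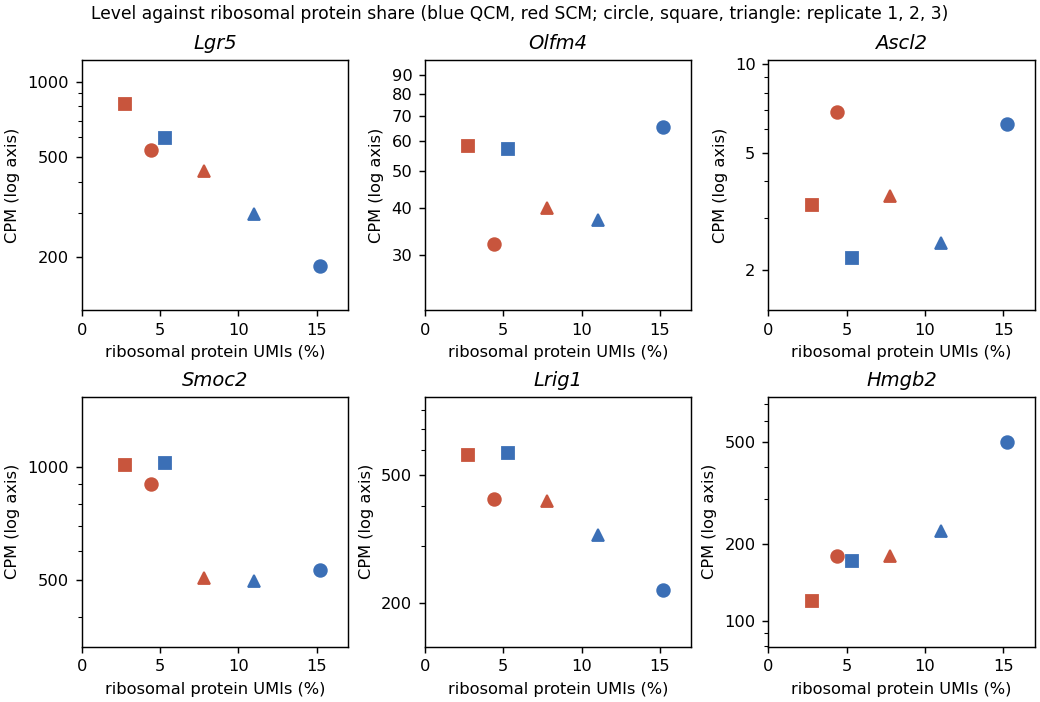
Each panel plots the CPM of 1 gene (log axis) against the share of UMIs from ribosomal protein genes (percent) in the 6 samples, blue for QCM and red for SCM, with the marker shape giving the replicate number. Lgr5 declines along the axis (r = -0.988) and Hmgb2 climbs (r = 0.937), with QCM replicate 1 at the right end at 15.2%.

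Within clusters the counts were summed per sample and cluster, and 13 clusters had at least 2 samples per medium with 10 nuclei or more. In 4 of these, clusters 9, 10, 11 and 12, SCM replicate 1 had 1 to 4 nuclei and was not in the fit, so SCM rests on 2 samples there. The 6 genes gave 66 tested pairs of gene and cluster, and 0 passed an adjusted p of 0.05 in edgeR, as was so for 0% of all 130109 pairs of gene and cluster. At an unadjusted p under 0.05 there were 12 pairs, 18.2%, against 5.76% of all pairs. The clusters are cut from the same 6 samples, so these pairs are not separate pieces of evidence. Over all genes the count under this p moved with single samples. It ran from 1646 of 107616 pairs without SCM replicate 2, where clusters 0 to 8 alone could be fitted, to 16794 of 134268 without QCM replicate 2. With no filter on low counts, 6 of the pairs of a crypt base gene and a cluster had an adjusted p under 0.05, 5 of Hmgb2 and 1 of Olfm4, among 3135 of the 318724 pairs then tested over all genes. With the replicate number as a block in the fit, 1 pair did, Hmgb2 in cluster 9, where 208 of 10250 genes tested did.

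Hmgb2 was lower in SCM in 13 of 13 clusters, with log2 ratios from -1.62 to -0.68 and a median of -1.07, and had 9 of the 12 pairs. In cluster 1, where its level was highest, the ratio was -1.18 ± 0.52 (SE, edgeR adjusted p = 0.674), with the values per sample given above. QCM replicate 1 was the highest sample there too, and without it the ratio was -0.39. With 1 sample left out at a time, the ratio nearest 0 in each of the 9 clusters lay between -0.91 (cluster 10) and -0.39 (cluster 1). The farthest from 0 was -2.01 (cluster 12). In clusters 9, 10 and 12 the samples left out were of QCM alone, since SCM had only 2 samples there. Lgr5 was higher in SCM in 13 of 13 clusters, from 0.22 to 1.05 with a median of 0.71. In cluster 0 it was at 249, 625 and 389 CPM in the QCM samples and at 898, 1008 and 497 CPM in the SCM samples, with QCM replicate 2 above SCM replicate 3, and the ratio was 0.83 ± 0.35 (edgeR adjusted p = 0.988). The other pair was cluster 4, at 0.93 ± 0.39 (edgeR adjusted p = 0.494). With 1 sample left out at a time, Lgr5 was at 0.57 to 1.18 in cluster 0 and 0.54 to 1.25 in cluster 4.

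The largest ratio of a crypt base gene was that of Olfm4 in cluster 7, where the fetal markers Ly6a, Clu and Anxa1 had their highest level. Olfm4 was there at 58.2, 37.7 and 27.6 CPM in QCM replicates 1, 2 and 3 and at 11.8 and 19.8 CPM in SCM replicates 2 and 3. SCM replicate 1 had 0 UMIs of Olfm4 among 153653, from 17 nuclei, where 3 counts would have been 19.5 CPM. All 3 SCM samples were therefore below all 3 QCM samples, as was so for 6.16% of the 10515 genes tested in this cluster. The log2 ratio was -1.73 ± 0.46 (SE), with an unadjusted p of 0.00303, which 11.9% of genes in this cluster had under 0.05, and an adjusted p of 0.339 in edgeR. Leaving out 1 sample at a time gave -2.18 to -1.25. In the other 11 clusters in which it was tested, Olfm4 ranged from -0.93 in cluster 8 to 0.11 in cluster 2, with 2 clusters above 0. Whether cluster 7 differed from them was not tested.

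Smoc2 was higher in SCM in 9 clusters and lower in 4, between -0.40 and 0.56, and Lrig1 was higher in 13 of 13, between 0.00 and 0.57, with no unadjusted p under 0.05 for either. Ascl2 had enough counts in clusters 0 and 1 alone, at 0.57 and -0.06. Markers of other cell types differed between the samples as well. QCM replicate 1, the sample at the extremes for Hmgb2 and Lgr5, had the highest summed level of 9 enterocyte markers (5364 CPM, with 884 to 2843 in the other samples), 6 Paneth markers (2633 CPM, with 335 to 630) and 7 goblet markers (2011 CPM, with 499 to 1126). The sum of 8 enteroendocrine markers was 125.2 to 194 CPM in QCM and 39.3 to 125.6 CPM in SCM, and that of 6 tuft markers 13.5 to 27.3 and 14.2 to 19.8 CPM. The summed level of 8 fetal markers was 45.6 to 92.3 CPM in QCM and 153 to 574 CPM in SCM (exact permutation p = 0.1, n = 3 each, the smallest the design allows), and that of 7 fibroblast markers was 1.73 to 5.62 CPM in QCM and 2.01 to 3.42 CPM in SCM. The part of these markers in the results for the 6 genes was not tested.

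**Figure D5:**
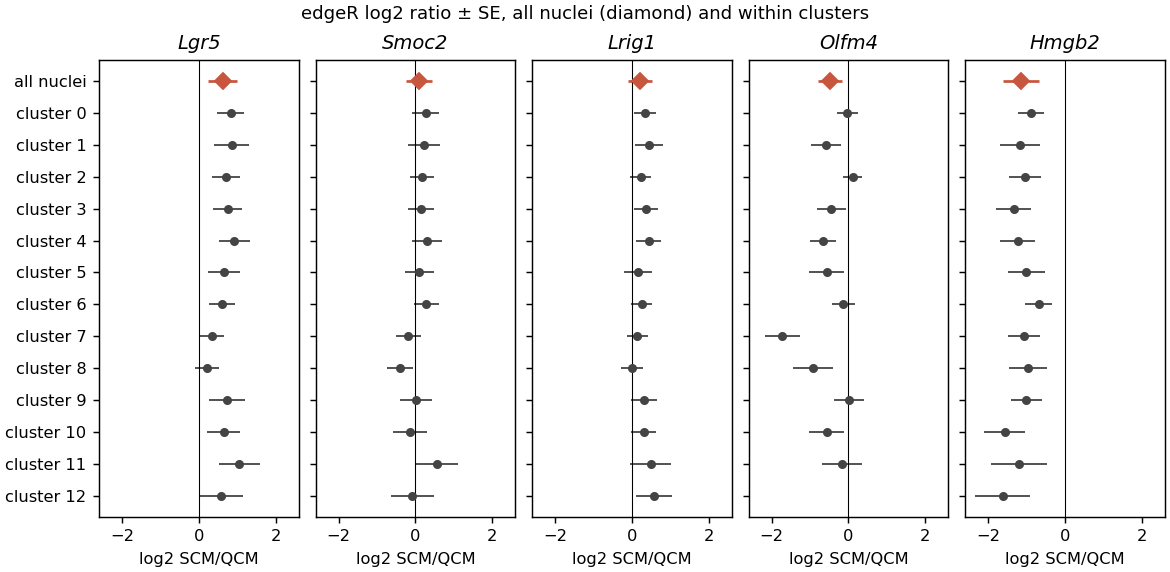
For 5 of the genes, the horizontal axis gives the edgeR log2 ratio of SCM to QCM with its SE over all nuclei (diamond) and within each fitted cluster (points). Hmgb2 lies left of 0 in all 13 clusters and Lgr5 right of 0 in all 13, and Olfm4 lies farthest left in cluster 7, at -1.73.

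The 6 genes were set beside 27 other crypt base and Wnt target genes, of which 26 were tested and 0 had an adjusted p under 0.05 in edgeR. Of these, 18 were higher and 8 lower in SCM, with a median log2 ratio of 0.18 against -0.01 over all genes tested. When samples were scaled by library size alone, the median of all genes went to 0.14 and that of the list to 0.34, with 23 higher and 3 lower. The smallest unadjusted p belonged to Cd44, an adhesion receptor and Wnt target, which was at 70.9, 74.6 and 74.7 CPM in QCM and at 142, 217 and 118 CPM in SCM. The QCM values were close together and all below the SCM values, while 7.08% of all genes tested did not overlap between media. The log2 ratio of Cd44 was 0.94 ± 0.24, with an unadjusted p of 0.00426 and an adjusted p of 0.927 in edgeR.

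Rnf43, the ubiquitin ligase that removes Wnt receptors, was at 337, 554 and 406 CPM in QCM and at 737, 763 and 514 CPM in SCM, with overlap and a ratio of 0.49 ± 0.23 (edgeR adjusted p = 0.927). Cdx1, an intestinal homeobox factor, was at 96.5, 81.9 and 90.7 CPM in QCM and at 64.8, 76.0 and 82.9 CPM in SCM, with overlap and a ratio of -0.44 ± 0.21 (edgeR adjusted p = 0.927). A list of 5 genes of reserve and quiescent crypt cells also had 0 called, with 3 higher and 2 lower and a median of 0.08. Of these, Clu, a marker of revival stem cells, was at 44.6, 15.2 and 23.6 CPM in QCM and at 117, 362 and 60.9 CPM in SCM, without overlap. Of all genes tested, 7.08% did not overlap either. The ratio of Clu was 2.44 ± 0.71, with an unadjusted p of 0.00935 and an adjusted p of 0.927 in edgeR. Hopx, a homeodomain protein, and Bmi1, a Polycomb subunit, had ratios of -0.57 ± 0.33 and -0.32 ± 0.25 (edgeR adjusted p = 0.927 and 0.929).

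Over the 15 clusters, 24 of the 27 listed genes had enough counts to be compared with the crypt base genes. Their correlation with Lgr5 had a median of 0.53, and 13 of 24 were above 0.5, beside a median of 0.22 and a share of 27.1% above 0.5 among all 12187 genes compared. With Hmgb2 the median was -0.21, beside -0.39 for all genes. The genes most like each of the 6 over clusters were Prkd3, Trmt11 and Alms1 for Lgr5 (r = 0.971, 0.955 and 0.954), Cd55b, Far2 and Rgmb for Smoc2 (0.969, 0.954 and 0.953) and Fancl, Arhgef26 and Gm15489 for Lrig1 (0.980, 0.967 and 0.965). For Hmgb2 they were Mrps14, Impdh2 and Wdr83os (0.986, 0.986 and 0.985), for Olfm4 Clca3b, Cdx1 and 2010320M18Rik (0.873, 0.824 and 0.788), and for Ascl2 Pfdn1, Sf3a2 and Nup210l (0.833, 0.825 and 0.816). These rest on counts pooled over samples. From the mean of the samples' log2 levels r was 0.088 for 2010320M18Rik with Olfm4, and 0.555, -0.18 and 0.417 for Pfdn1, Sf3a2 and Nup210l with Ascl2, so for these 4 genes the likeness depends on the pooling. For the other 14 named genes it was 0.774 to 0.942, but within single samples their lowest r ran from -0.069 to 0.750 and was under 0.3 for 5 of them: Prkd3 and Trmt11 with Lgr5, Fancl with Lrig1, Wdr83os with Hmgb2 and Cdx1 with Olfm4. Above a pooled r of 0.9 there were 524 genes for Hmgb2, 107 for Lrig1, 49 for Lgr5, 18 for Smoc2 and 0 for Olfm4 and Ascl2. These counts rest on 37127 UMIs of Hmgb2 and 550 of Ascl2, and the part of depth in them was not tested.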

How the data were processed

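Single-nucleus RNA sequencing measured nuclei of frozen jejunal organoids by droplet capture of 3′ ends (10x Genomics). Per the labels, the submitters' processing notes list Cell Ranger 2.1.1 and the mm10 build. The authors left out nuclei beyond 3 MAD (in their words, mean absolute deviation) in mitochondrial content, total or features, and clustered the rest by the Leiden method after Harmony in scanpy. The deposited values are whole UMI counts per gene and nucleus, with a cluster number for each nucleus, and were not normalized. The strand setting and intron use of the counting, and any doublet removal, are not given in the sources used here, and no doublet caller was run.

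Gene identifiers were matched to symbols, positions and transcripts of GENCODE M21 (GRCm38), which named 31244 of 31319 genes. UMI counts were summed per sample, and per sample and cluster with at least 10 nuclei, and tested with edgeR 4.0.16 (R 4.3.3) using TMM and filterByExpr with a minimum count of 10. The Benjamini-Hochberg adjustment ran over all genes tested in a fit, with a threshold of 0.05. The SE given with an edgeR log2 ratio is the absolute ratio divided by the square root of its quasi-likelihood F statistic. Correlations over clusters used log2(CPM + 1) of counts pooled over samples in clusters of at least 50 nuclei, among genes of at least 10 CPM in 1 cluster. Shares at equal depth are hypergeometric expectations, and exact permutation tests are two-sided (SciPy 1.17.1). Near copies were sought with BLAST 2.17.0, and motifs by exact letters on both strands. Scripts were tested on simulated data. DESeq2 1.42.0, limma 3.58.1 (voom), other scalings and filters, samples left out and the replicate block were alternatives.

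The text names the 6 genes in every comparison, the members of other lists with the 3 smallest p where none was called, and the 3 genes of most similar cluster pattern. Clu was counted with both the reserve and the fetal list. Ly6a, Clu and Anxa1, and the marker genes set beside Lgr5, were chosen as examples after their values were seen. The genes and lists were chosen with earlier results of these data known, so they are no independent support. Precision is limited by the 3 samples per medium and by 4071926 to 41035733 UMIs per sample, and counting limits cover counting error only.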

Additional observations from a re-analysis of the deposited data

How the results depend on the processing

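Over all nuclei, 0 of the 6 genes were called under every alternative run, DESeq2 included, although DESeq2 called 21 genes in all (20 higher, 1 lower) where edgeR called 0 (866 at an unadjusted p under 0.05). Directions were less firm. With the ribosomal protein share as covariate the log2 ratios became -0.063 (Lgr5), -0.41 (Smoc2), -0.28 (Lrig1), 0.0063 (Hmgb2) and 1.10 (Ascl2, from 0.03), and with replicates 2 and 3 alone 0.017 (Olfm4) and -0.044 (Smoc2). Ascl2 became -0.58 without the 6% of nuclei with the most UMIs, -0.39 without cluster 14, -0.20 without nuclei of shared barcodes and -0.20 with clusters weighted equally. The causes of these turns were not tested. Leaving out 1 sample at a time gave 0.34 to 1.09 for Lgr5, -0.73 to -0.14 for Olfm4, -0.31 to 0.88 for Ascl2, -0.12 to 0.39 for Smoc2, 0.01 to 0.58 for Lrig1 and -1.47 to -0.36 for Hmgb2. Scaled by library size alone, as CPM are, the ratios were 0.73 (Lgr5), -0.29 (Olfm4), 0.28 (Ascl2), 0.23 (Smoc2), 0.32 (Lrig1) and -0.91 (Hmgb2).

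Within clusters, with no filter on low counts, 6 pairs of gene and cluster were called instead of 0, among 3135 pairs over all genes: Hmgb2 in clusters 2, 3, 4, 7 and 10 (log2 -1.05, -1.36, -1.36, -1.06 and -1.55) and Olfm4 in cluster 7 (-1.66). DESeq2 called 39 pairs over all genes, scaling by library size alone 5, and the fits without QCM replicate 2 called 32. With 1 sample left out at a time, 0 pairs of the 6 genes were called, but in clusters 9 to 12 no SCM sample could be left out. The replicate numbers shared by the media were not taken as pairs, since the deviations of same-numbered samples correlated at 0.364, 0.456 and -0.0851. Numbers 1 and 2 correlated best with their own number and number 3 did not, so a pairing of part of the samples is possible. With the replicate block 0 genes of the 6 were called over all nuclei, at 0.69 ± 0.23 (SE) for Lgr5, higher in SCM in 3 of 3 numbers, and -0.93 ± 0.33 for Hmgb2, lower in 3 of 3 (edgeR unadjusted p = 0.0221 and 0.0286, adjusted 0.796 for both). Within clusters 1 pair was called, Hmgb2 in cluster 9 (-0.87), among 248 of 130109 pairs over all genes. Cluster 9 itself had 208 of its 10250 genes called. Number 1 was there in QCM alone, so that fit compares the media in numbers 2 and 3 only.

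Of the shares of nuclei with a UMI, 0 of 6 separated the media, but 1 did at 2000 UMIs (Hmgb2, exact permutation p = 0.1, n = 3 each, the smallest possible), beside 6.9% of all genes, and 0 to 3 did with 1 sample left out, beside 9.14% to 31.2% of all genes. The 3 were Lgr5, Lrig1 and Hmgb2 without QCM replicate 2, where 31.2% of all genes were apart. At 2000 UMIs the nuclei compared differ too, as 0 of 3791 were left out in QCM replicate 1 and 6860 of 10144 in QCM replicate 3. The difference of SCM minus QCM for Ascl2 was -0.189 points at 2000 UMIs and -0.688 without thinning, with -0.0356 to 0.368 leaving out 1 sample, and for Smoc2 it was -5.58 without thinning, with -1.14 to 11.9 leaving out 1 sample. The difference in median UMIs per nucleus ran from -2724 to 617 with 1 sample left out. Without the 2 samples farthest from the median ribosomal share r was -0.353 for Olfm4 and -0.141 for Ascl2. The alternatives for the correlations with the ribosomal share, within samples included, were chosen after seeing the data. So were those for the differences between media in this share and in median UMIs. Depth limits Ascl2 most, and SCM replicate 1, with 430 nuclei, limits the values within clusters 0 to 8 and is absent from the fits of clusters 9 to 12.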
